A study of Mus musculus with 6 samples.

Results

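The genes described here encode the proximal signaling machinery of the T cell receptor (TCR): kinases, phosphatases, adaptors, Ras and MAPK proteins, actin regulators, enzymes of diacylglycerol and calcium signaling, and subunits of PI3K. Members were the rows of the deposited gene table whose symbol is on a list of 48 genes, and all 48 were found among its 22322 genes, each in 1 row. The list leaves out the CD3 chains, the coreceptors, Lck and the AP-1 and NF-kB genes. RNA-Seq was performed on sorted double-positive (DP) thymocytes, in 3 libraries from control mice and 3 from Paxbp1 cKO mice. All animals were on the C57BL/6 background and carried floxed Paxbp1 alleles (Paxbp1fl/fl), with loxP sites around exon 8, and were untreated, of mixed sexes and aged 4 to 7 weeks. The cKO mice also carried the Lck-cre transgene, which is active from the early thymocyte stages. The control mice were littermates with Paxbp1fl/fl alone, so no group carried the transgene without the deletion. The sample titles call the control libraries WT, so their genotype here is the one the study gives for its controls. No source used here says if each library came from a separate mouse, so p-values measure the spread between libraries. The comparison asks which transcripts differ when Paxbp1 is deleted, for cells whose survival was the study's subject.

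A DP thymocyte tests its new TCR on ligands of the thymic cortex, and the strength of the signal decides between death by neglect, positive selection and deletion. Src family kinases phosphorylate the receptor chains, ZAP-70 is recruited and phosphorylates the adaptors LAT and SLP-76, and phospholipase C gamma 1 is activated on them. The enzyme makes diacylglycerol, which turns on Ras and protein kinase C theta, and inositol trisphosphate, which releases calcium for calcineurin and NFAT. Phosphatases, CSK, ubiquitin ligases of the CBL family and diacylglycerol kinases restrain the signal.

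Depth ran from 18963775 to 26252248 counts per library, and a single count equalled 0.0381 to 0.0527 CPM, the unit of counts scaled to library size. No 2 libraries of a group agreed within sampling noise. Paxbp1, the targeted gene, had 40.1, 16.3 and 15.5 CPM in control libraries 1, 2 and 3 and 38.8, 47.1 and 49.6 CPM in the libraries labelled cKO 1, 2 and 3, after scaling with edgeR's TMM factors. It was not called (log2 fold change 0.92, standard error 0.33, edgeR adjusted p = 0.0977). Without control library 1 Paxbp1 was called higher (log2 fold change 1.5, edgeR adjusted p = 0.00170). The counts are per gene and do not measure the deleted exon alone, and exons of 4930404I05Rik on the other strand overlap 20.7% of the exonic bases. They therefore do not check the genotype labels, and each direction given here rests on those labels. Eif2s3y, a gene of the Y chromosome, was called lower in the libraries labelled cKO (log2 fold change -0.98, edgeR adjusted p = 0.0135). Sex was not a term in the fit, so its part in the changes given here was not tested. DP markers were abundant, with 256, 292 and 251 CPM of Cd4, 1548, 2141 and 1773 CPM of Cd8a and 2541, 2401 and 1951 CPM of Rag1 in control libraries 1, 2 and 3.

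Per gene length, the members differed widely in level in DP thymocytes. Levels are given here as FPKM, fragments scaled to transcript length and library size, as deposited, with the mean over all 6 libraries and the lowest and highest library. Lat, the membrane adaptor that gathers the signaling complex, had the highest level with 1466 FPKM (1338 to 1686). It was followed by Rhoh, a small GTPase-like protein needed for ZAP-70 recruitment, with 555 FPKM (443 to 705), and by Ptprc, the phosphatase CD45, with 526 FPKM (403 to 658). Themis, a thymocyte protein required for positive selection, had 359 FPKM (286 to 487). Lat stood above every other member in each library, while the ranges of Rhoh and Ptprc overlapped, as did those of Ptprc and Themis. The range of Themis lay above that of the next gene, Lcp2. From there the levels went on through Lcp2 (151 FPKM), Zap70 (144), Ptpn6 (138), Rasgrp1 (136), Vav1 (127) and Dgka (118), and neighbours among these 6 had overlapping ranges. At the other end Sos1 (2.08 FPKM), Sos2 (1.93), Nfatc2 (1.87) and Ubash3b (0.372) were lowest. This order is over both groups and differs between them for some genes. Dgka had 151 ± 15.5 FPKM (SD, n = 3) in the control libraries and 85.7 ± 14.9 FPKM in the cKO libraries. Sos1 was below Sos2 in the control libraries (1.75 ± 0.205 and 2.15 ± 0.754 FPKM) and above it in the cKO libraries (2.41 ± 0.221 and 1.71 ± 0.244 FPKM). All 48 members passed the filter on low counts, and Ubash3b, at 0.233 to 2.23 CPM, had the lowest level among them.

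**Figure D1:**
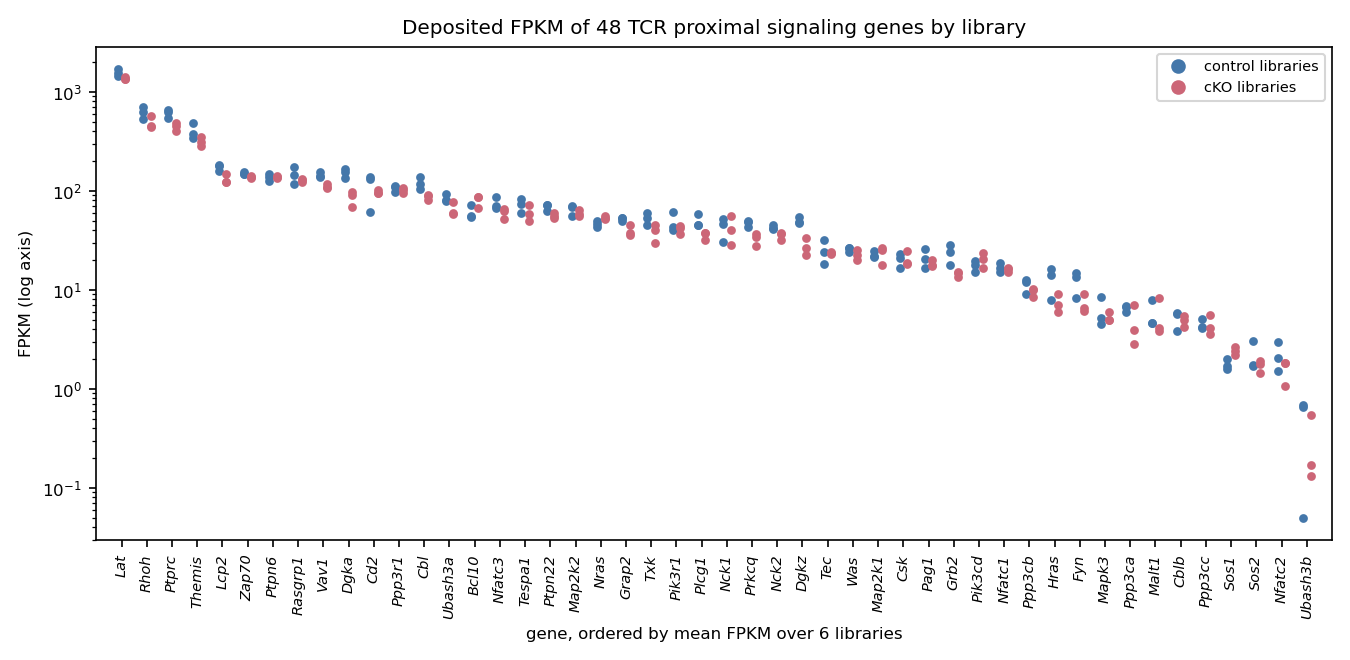
FPKM of the 48 genes on a log axis, ordered by the mean over 6 libraries, with 1 point per library (control blue, cKO red). Lat lies highest with a mean of 1466 FPKM and Ubash3b lowest with 0.372.

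TCR proximal signaling genes were mostly lower in the libraries labelled cKO, by modest amounts. By edgeR's quasi-likelihood test, 9 of the 48 fell and 1 rose at an adjusted p below 0.05, which is 18.8% and 2.08% of the members. Over all 11488 tested genes 5.89% fell and 4.47% rose. The members that fell were Dgka, Dgkz, Prkcq, Ptprc, Vav1, Plcg1, Grap2, Lcp2 and Fyn, and the member that rose was Pik3cd. In GENCODE release M21 on GRCm38, Ptprc lies on chromosome 1 (138062861 to 138175708), Vav1 on chromosome 17 (57279100 to 57328031), Grap2 on chromosome 15 (80572594 to 80652854), Lcp2 on chromosome 11 (34046920 to 34092295), Fyn on chromosome 10 (39368855 to 39565381) and Pik3cd on chromosome 4 (149649168 to 149702571). None of the 10 passed an absolute log2 fold change of 1. The log2 fold change was below 0 for 44 members and above 0 for 4 (Pik3cd, Sos1, Bcl10 and Map2k1), with a median of -0.26, beside a median of -0.0017 over all tested genes. The values of Csk, Map2k1 and Tec lay so near 0 that their sign changed with the scaling (Csk), the filter (Map2k1) or the model (Tec). At an unadjusted edgeR p below 0.05 there were 24 members, 21 lower and 3 higher. Of the 11488 tested genes 3204 passed this limit, 1680 lower and 1524 higher. The cKO libraries lay wholly below the control libraries for 18 members (37.5%, beside 17.3% of all tested genes) and wholly above them for 2 (4.17%, beside 15.7%). For the other 28 members the groups overlapped. Well expressed genes were called more often in both directions. Among tested genes with a mean of at least 50 CPM, 8.88% fell and 6.08% rose, and of the 34 members above that level 8 fell (23.5%) and 1 rose (2.94%). With 3 libraries against 3 an exact two-sided permutation test of a single gene gives no p below 0.1. In such bulk libraries, fewer cells of a kind and less RNA per cell cannot be told apart.

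**Figure D2:**
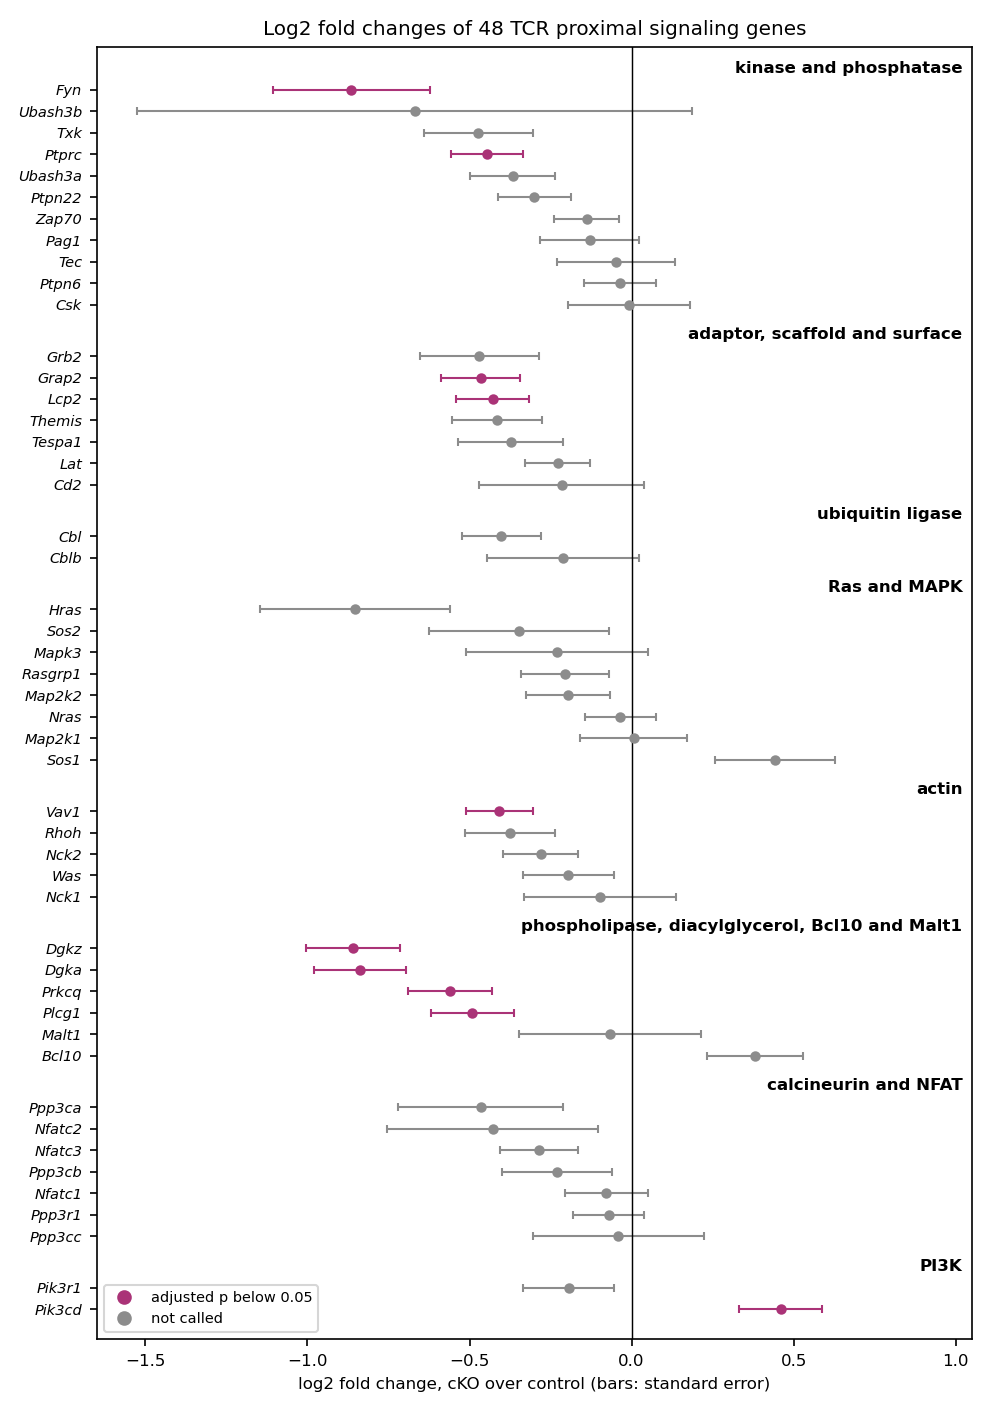
Log2 fold change of each of the 48 genes, cKO over control, grouped by role, with the standard error as bars and called genes (edgeR adjusted p below 0.05) in purple. In all, 44 points lie left of 0, and the 9 called genes on that side run from -0.86 (Fyn) to -0.41 (Vav1), with Pik3cd on the right at 0.46.

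Of the 6 members grouped as phospholipase, diacylglycerol kinases, protein kinase C theta, Bcl10 and Malt1, 4 fell (66.7%), both diacylglycerol kinases among them. The share that fell was 5.89% over all tested genes and 8.88% over those with a mean of at least 50 CPM. The members were chosen with earlier results of these data known, so these shares are descriptive only. Rasgrp1, which diacylglycerol also recruits, is counted with the Ras and MAPK genes and was not called. Diacylglycerol kinases convert diacylglycerol to phosphatidic acid and so end the signal to Ras and protein kinase C. Dgka, the more abundant of the pair by FPKM, had 459.7, 441 and 386 CPM in control libraries 1, 2 and 3 and 257, 269 and 194 CPM in cKO libraries 1, 2 and 3. Each cKO library held less than any control library, and the cKO mean was 56.0% of the control mean (log2 fold change -0.84, standard error 0.14, edgeR adjusted p = 0.00869). Dgkz, the other isoform, had 214, 190.0 and 195 CPM in the control and 133, 105 and 91.7 CPM in the cKO libraries. The groups were again apart, with a cKO mean at 55.1% of control (log2 fold change -0.86, standard error 0.15, edgeR adjusted p = 0.00870). The ratio of Dgka to Dgkz CPM was 1.98 to 2.32 in the control and 1.93 to 2.55 in the cKO libraries, and these ranges overlapped. Plcg1, which makes diacylglycerol, went from 259, 221 and 216 CPM to 177, 174 and 144 CPM (log2 fold change -0.49, standard error 0.13, edgeR adjusted p = 0.0383). Prkcq, the protein kinase C theta that diacylglycerol activates, went from 154, 180.1 and 174 CPM to 119, 126 and 99.2 CPM (log2 fold change -0.56, standard error 0.13, edgeR adjusted p = 0.0245). For both genes the highest cKO library was below the lowest control library. Called decreases thus stood at the enzyme that makes diacylglycerol, at a kinase that senses it and at the kinases that remove it. With 1 library left out in turn, Dgka and Dgkz kept the call in 5 of 6 fits, Prkcq in 2 and Plcg1 in 1. Bcl10 and Malt1, which act together downstream of protein kinase C theta, were not called. Bcl10 had a log2 fold change of 0.38 and Malt1 one of -0.068 (edgeR adjusted p = 0.127 and 0.908).

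The 4 genes of this branch that fell lie on chromosome 10 (Dgka, 128720134 to 128744855) and chromosome 2 (Dgkz, 91932824 to 91975864; Prkcq, 11172108 to 11301222; Plcg1, 160731300 to 160775760) in GENCODE release M21 on GRCm38. On the other strand, exons of Pmel overlap 2.21% of the exonic bases of Dgka, exons of Gm9821 3.54% of Dgkz, and exons of Gm27206 and Zhx3 6.68% of Plcg1. No source used here says if strand entered the counting, so reads of such partners cannot be told apart. The bases before a RefSeq start of 3 of these genes are shown because all 3 fell. Each is a window of 250 bases before a start, ended where a GENCODE exon of the gene begins, and the window of Prkcq, which lies in such an exon, is not shown. They are from RefSeq on GRCm38.p6, 5′ to 3′ on the strand of the gene. Capitals mark matches on either strand to any of the motifs searched. These were the GC box with the letters GGGCGG, an E-box with the letters CAGGTG, another E-box with the letters CAGCTG, the core of ETS factor sites with the letters CCGGAA, the core of RUNX factor sites with the letters TGTGGT, and the TATA box with the letters TATAAA. None of these motifs contains another. Dgka has 4 listed starts and Dgkz 2, of which the most upstream is shown, and which of them DP thymocytes use was not tested. The bases shown for Dgkz lie within its GENCODE span, before the start of a shorter transcript, since another transcript starts further upstream. The windows are chr10:128745085-128745334 on the minus strand for Dgka (250 bases), chr2:91963658-91963813 on the minus strand for Dgkz (156 bases) and chr2:160731060-160731299 on the plus strand for Plcg1 (240 bases).
Dgka: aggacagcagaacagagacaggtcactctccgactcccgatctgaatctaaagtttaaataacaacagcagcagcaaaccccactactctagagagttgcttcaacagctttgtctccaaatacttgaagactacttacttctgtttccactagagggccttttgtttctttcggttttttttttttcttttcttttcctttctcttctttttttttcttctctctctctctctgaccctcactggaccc
Dgkz: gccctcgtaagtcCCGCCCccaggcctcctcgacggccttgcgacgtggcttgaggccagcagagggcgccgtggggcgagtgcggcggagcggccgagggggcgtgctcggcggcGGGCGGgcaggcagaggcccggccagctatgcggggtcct
Plcg1: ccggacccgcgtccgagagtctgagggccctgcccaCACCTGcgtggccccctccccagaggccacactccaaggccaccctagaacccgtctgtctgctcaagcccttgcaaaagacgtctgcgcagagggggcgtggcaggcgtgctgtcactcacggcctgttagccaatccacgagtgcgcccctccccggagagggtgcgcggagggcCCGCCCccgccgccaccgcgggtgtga
The GC box occurred in the shown bases of Dgkz and Plcg1, and CAGGTG in those of Plcg1, while the shown window of Dgka held none of these letters and the other windows of Dgka held the GC box and TATAAA. Of the 48 members 40 matched a RefSeq window by symbol. Counting a gene with a match in any of its untrimmed windows, the GC box was found in 65.0% of these 40 members and 63.9% of 9154 tested genes with a window (35.4% of all genes with one). CAGGTG was found in 32.5% of the members, 18.1% of tested genes and 19.4% of all genes, and CCGGAA in 12.5%, 26.7% and 13.6%. CAGCTG was found in 5.0%, 13.6% and 14.7%, TGTGGT in 15%, 12.8% and 15.9%, and TATAAA in 12.5%, 7.67% and 14.3%. These are matches of letters and not binding sites.

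Among the kinases and phosphatases, 2 of 11 members fell (18.2%, beside 5.89% of all tested genes) and 9 were not called. Ptprc encodes CD45, the receptor phosphatase that removes the inhibitory phosphate from LCK and FYN. It had 2514, 2531 and 2214 CPM in control libraries 1, 2 and 3 and 1695, 1971 and 1660.2 CPM in the libraries labelled cKO 1, 2 and 3, with no overlap (log2 fold change -0.45, standard error 0.11, edgeR adjusted p = 0.0321). Fyn, the second Src family kinase of thymocytes beside LCK, had 19.1, 36.0 and 33.0 CPM in the control and 18.1, 15.9 and 14.4 CPM in the cKO libraries (log2 fold change -0.86, standard error 0.24, edgeR adjusted p = 0.0482). Control library 1 lay just above cKO library 1 and far below the other two control libraries, and without it the log2 fold change of Fyn was -1.10 (edgeR adjusted p = 0.00470). The call of Fyn was lost with relative log expression factors (edgeR adjusted p = 0.0506) and with total counts alone (edgeR adjusted p = 0.0509). In deposited FPKM the Fyn groups overlapped, with 8.17 FPKM in control library 1 and 9.07 FPKM in cKO library 1. Zap70, the kinase that carries the signal from the receptor chains to LAT, had 332, 348 and 338 CPM in the control and 300.1, 316 and 309 CPM in the cKO libraries. All cKO libraries were below the control libraries, but the difference was small and not called (log2 fold change -0.14, edgeR adjusted p = 0.407). Txk, a Tec family kinase, had 119, 136 and 103 CPM in the control and 89.9, 101 and 67.1 CPM in the cKO libraries, also without overlap (log2 fold change -0.47, edgeR adjusted p = 0.0974). For its relative Tec the log2 fold change was -0.048, with an edgeR adjusted p of 0.899. The brakes on Src kinases were not called either. Csk, which adds the inhibitory phosphate, and Pag1, a membrane adaptor that binds CSK, had log2 fold changes of -0.0076 and -0.13. Ptpn22, a phosphatase that acts with CSK, had -0.30, and Ptpn6, the phosphatase SHP-1, had -0.035 (edgeR adjusted p = 0.114 and 0.874). The phosphatases Ubash3a and Ubash3b, which act on ZAP-70, had -0.37 and -0.67 (edgeR adjusted p = 0.101 and 0.663).

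**Figure D3:**
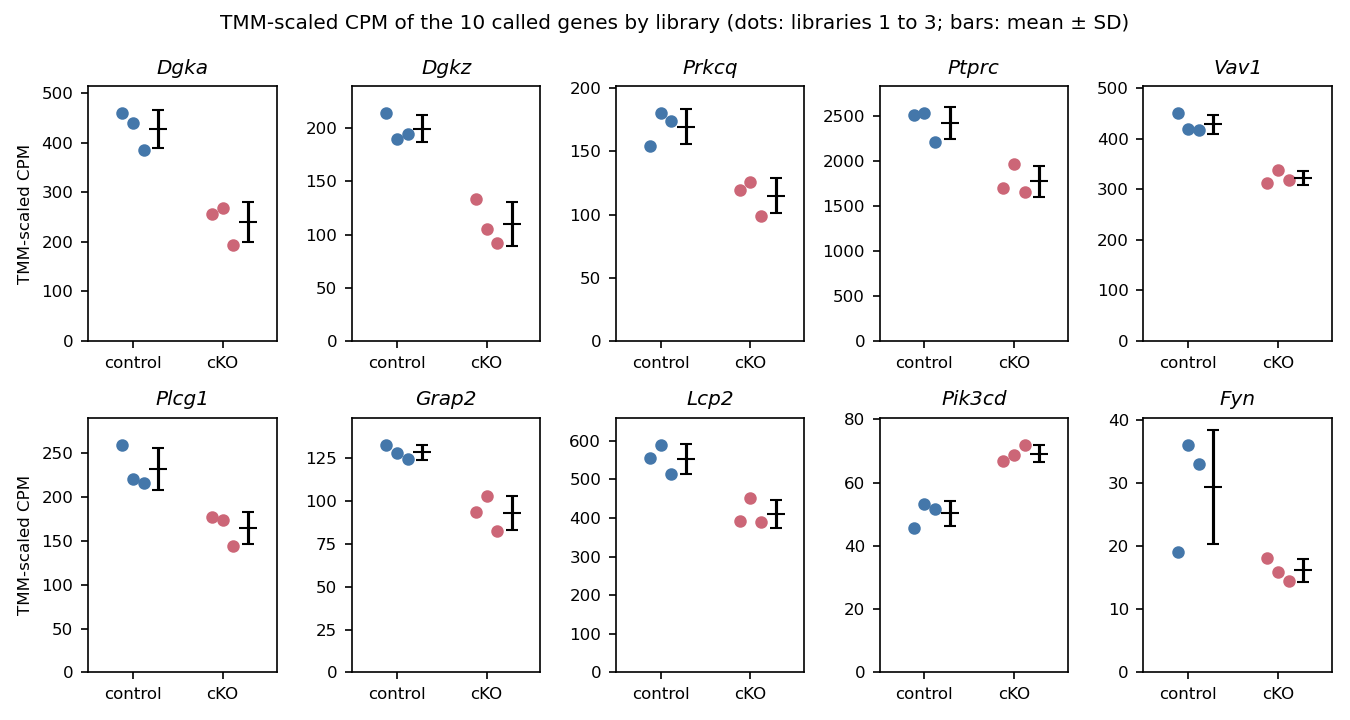
TMM-scaled CPM of the 10 genes at an edgeR adjusted p below 0.05, ordered by that p, with 1 dot per library in the order 1 to 3 and the mean ± SD (n = 3) beside each group. No panel has overlapping groups, the closest being Fyn, where control library 1 had 19.1 CPM and cKO library 1 had 18.1 CPM.

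In the adaptor group 2 of 7 members fell (28.6%, beside 5.89% of all tested genes). Both belong to the complex that docks on phosphorylated LAT. Lcp2, which encodes SLP-76, had 555, 589.7 and 513 CPM in control libraries 1, 2 and 3 and 391, 451 and 389 CPM in cKO libraries 1, 2 and 3 (log2 fold change -0.43, standard error 0.11, edgeR adjusted p = 0.0395). Grap2, which encodes GADS, the link between SLP-76 and LAT, had 133, 128 and 124 CPM in the control and 93.6, 103 and 82.5 CPM in the cKO libraries (log2 fold change -0.47, standard error 0.12, edgeR adjusted p = 0.0390). Each was lower in every cKO library than in any control library. Exons of 4930469K13Rik overlap 6.32% of the exonic bases of Lcp2 on the other strand. Lat itself had 1946, 1689.5 and 1826 CPM in the control and 1554, 1598 and 1511 CPM in the cKO libraries, apart but not called (log2 fold change -0.23, edgeR adjusted p = 0.171). Themis had 1587, 1316 and 1107 CPM in the control and 986, 1089.7 and 930.3 CPM in the cKO libraries, with cKO library 2 just below control library 3. It was not called by edgeR (log2 fold change -0.42, adjusted p = 0.0828) but was by DESeq2 (adjusted p = 0.0388). Grb2, which brings SOS to LAT, had 39.9, 55.3 and 61.3 CPM in the control and 40.7, 32.5 and 39.9 CPM in the cKO libraries. Its groups overlapped, since control library 1 was below cKO library 1 (log2 fold change -0.47, edgeR adjusted p = 0.127). Tespa1, an adaptor needed for thymocyte calcium signals, stood at -0.37 on the log2 scale (edgeR adjusted p = 0.165). Cd2, an adhesion receptor, had -0.22 (edgeR adjusted p = 0.633). Control library 1 held 70.2 CPM of Cd2 against 162 and 155 CPM in the other two control libraries, and without it Cd2 was called lower (log2 fold change -0.51, edgeR adjusted p = 0.00896). The ubiquitin ligases Cbl and Cblb, which mark signaling proteins for degradation, had log2 fold changes of -0.40 and -0.21 and were not called (edgeR adjusted p = 0.0623 and 0.606), although DESeq2 called Cbl (adjusted p = 0.0246).

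Of the 5 actin regulators 1 fell (20%, beside 5.89% of all tested genes), namely Vav1. It encodes the guanine nucleotide exchange factor that activates Rac at the LAT complex, and had 450.5, 419 and 417 CPM in control libraries 1, 2 and 3 and 312, 339 and 319 CPM in cKO libraries 1, 2 and 3. The cKO mean was 75.3% of control, with little spread in either group (log2 fold change -0.41, standard error 0.10, edgeR adjusted p = 0.0342). Rhoh had 1711, 1305 and 1548 CPM in the control and 1368, 1076 and 1077 CPM in the cKO libraries. Its groups overlapped through cKO library 1 (log2 fold change -0.37, edgeR adjusted p = 0.108). Nck1 and Nck2, adaptors between SLP-76 and actin, had log2 fold changes of -0.10 and -0.28, and Was, the Wiskott-Aldrich syndrome protein that starts actin branches, had -0.20 (edgeR adjusted p between 0.147 and 0.834).

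In the Ras and MAPK group 0 of 8 genes were called by edgeR, with 2 at an unadjusted p below 0.05 and 1, Hras, called by DESeq2 (adjusted p = 0.0498). Their log2 fold changes ran from -0.85 to 0.44. The unadjusted limit was passed by 3204 of all 11488 tested genes. Hras, a Ras GTPase with a low level in these cells, had 9.86, 17.7 and 20.5 CPM in control libraries 1, 2 and 3 and 10.6, 8.64 and 7.39 CPM in the libraries labelled cKO 1, 2 and 3. Control library 1 lay within the cKO range, and the difference was not called (log2 fold change -0.85, standard error 0.29, edgeR adjusted p = 0.0888), but without that library it was (edgeR adjusted p = 0.0128). Nras, the more abundant isoform by FPKM, had 181, 201 and 197 CPM in the control and 200.2, 182 and 183 CPM in the cKO libraries (log2 fold change -0.035, edgeR adjusted p = 0.873). Sos1 and Sos2 are exchange factors that load Ras with GTP. Sos1 was higher in each cKO library than in any control library, with 16.5, 14.5 and 13.6 CPM against 18.3, 21.8 and 20.5 CPM, without passing the test (log2 fold change 0.44, edgeR adjusted p = 0.153), and Sos2 stood at -0.35 on the log2 scale (edgeR adjusted p = 0.454). Rasgrp1, the exchange factor that diacylglycerol recruits and that thymocytes depend on, had 877, 744 and 612 CPM in the control and 619, 662 and 655 CPM in the cKO libraries, which overlapped (log2 fold change -0.21, edgeR adjusted p = 0.355). Further down the cascade, the MEK genes Map2k1 and Map2k2 had log2 fold changes of 0.007 and -0.20, and Mapk3, which encodes ERK1, had -0.23 (edgeR adjusted p = 0.985, 0.357 and 0.647).

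The 7 calcineurin and NFAT genes all had log2 fold changes below 0, from -0.47 to -0.041. By edgeR 0 of them were called, with 1 at an unadjusted p below 0.05 and 0 called by DESeq2. The unadjusted limit was passed by 3204 of all 11488 tested genes. Ppp3ca, a catalytic subunit of calcineurin, had 20.7, 21.0 and 18.6 CPM in control libraries 1, 2 and 3 and 20.2, 9.95 and 13.6 CPM in cKO libraries 1, 2 and 3. Its control libraries lay close together, while cKO library 1 stayed within their range and the other two did not (log2 fold change -0.47, standard error 0.25, edgeR adjusted p = 0.265). The other catalytic subunits Ppp3cb and Ppp3cc had -0.23 and -0.041, and the regulatory subunit Ppp3r1, whose exons share 14.3% of their bases with Wdr92 on the same strand, had -0.071. Of the NFAT factors that calcineurin sends to the nucleus, Nfatc3 had 367, 311 and 314 CPM in the control and 282, 289.6 and 243 CPM in the cKO libraries, apart but not called (log2 fold change -0.28, edgeR adjusted p = 0.156). Nfatc1 and Nfatc2 had -0.078 and -0.43 (edgeR adjusted p = 0.740 and 0.431).

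Pik3cd was the 1 member that rose. It encodes p110 delta, the catalytic PI3K subunit of leukocytes, and had 45.8, 53.4 and 51.7 CPM in control libraries 1, 2 and 3 and 66.8, 68.7 and 71.9 CPM in the libraries labelled cKO 1, 2 and 3. In CPM the groups were apart and the cKO mean was 138% of control (log2 fold change 0.46, standard error 0.13, edgeR adjusted p = 0.0476). In deposited FPKM the Pik3cd groups overlapped, with 15.1, 19.8 and 17.9 in the control and 16.6, 20.7 and 23.4 in the cKO libraries. Pik3r1, its regulatory partner p85 alpha, had 187, 135 and 155 CPM in the control and 149.8, 126 and 142 CPM in the cKO libraries and was not called (log2 fold change -0.19, edgeR adjusted p = 0.409). Myeloid cells express Pik3cd and Ptprc too. Of 16 macrophage markers, 4 of the 10 tested were called higher (Adgre1, C1qb, C1qc and Cd68), and their summed level was 16.2 to 41.5 CPM in the control and 55.5 to 74.7 CPM in the cKO libraries. The defining marker Adgre1 was at 0 in all control libraries and had a mean of 2.29 CPM in the cKO libraries, and Mertk, Vsig4 and Marco were at 0 in all libraries. The part of macrophage RNA in the level of Pik3cd was not tested.

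Members that restrain the signal and those that carry it were both mostly lower. Of 10 inhibitors (Csk, Pag1, Ptpn6, Ptpn22, Ubash3a, Ubash3b, Cbl, Cblb, Dgka and Dgkz) 2 fell and 0 rose by edgeR. Over all tested genes 5.89% fell and 4.47% rose. Of the 10 inhibitors 5 had an unadjusted edgeR p below 0.05, beside 3204 of 11488 tested genes. By DESeq2 0 inhibitors were called higher, and the median log2 fold change of the 10 was -0.33. Of the other 38 members 7 fell and 1 rose, with a median of -0.23. The difference between these groups was not tested. Together the 48 members made up 1.33% to 1.51% of the scaled counts in the control libraries and 1.08% to 1.16% in the libraries labelled cKO, with the largest parts from Ptprc, Lat, Rhoh and Themis. Within pairs of related genes, the CPM ratio, which is not per length and is read between libraries only, was apart between the groups for Sos1 over Sos2 and for Nras over Hras. The first was 0.988 to 1.5 in the control and 1.72 to 2.74 in the cKO libraries, and the second 9.61 to 18.3 and 18.9 to 24.8. Over all tested genes, the cKO libraries lay wholly below the control libraries for 17.3% and wholly above for 15.7%. No such share was computed for ratios of gene pairs, and the ratios were not tested. Ratios of the other 10 pairs overlapped, including Cbl over Cblb, with 19 to 32.3 and 19.5 to 26.1, and Grap2 over Grb2, with 2.02 to 3.32 and 2.07 to 3.16.

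**Figure D4:**
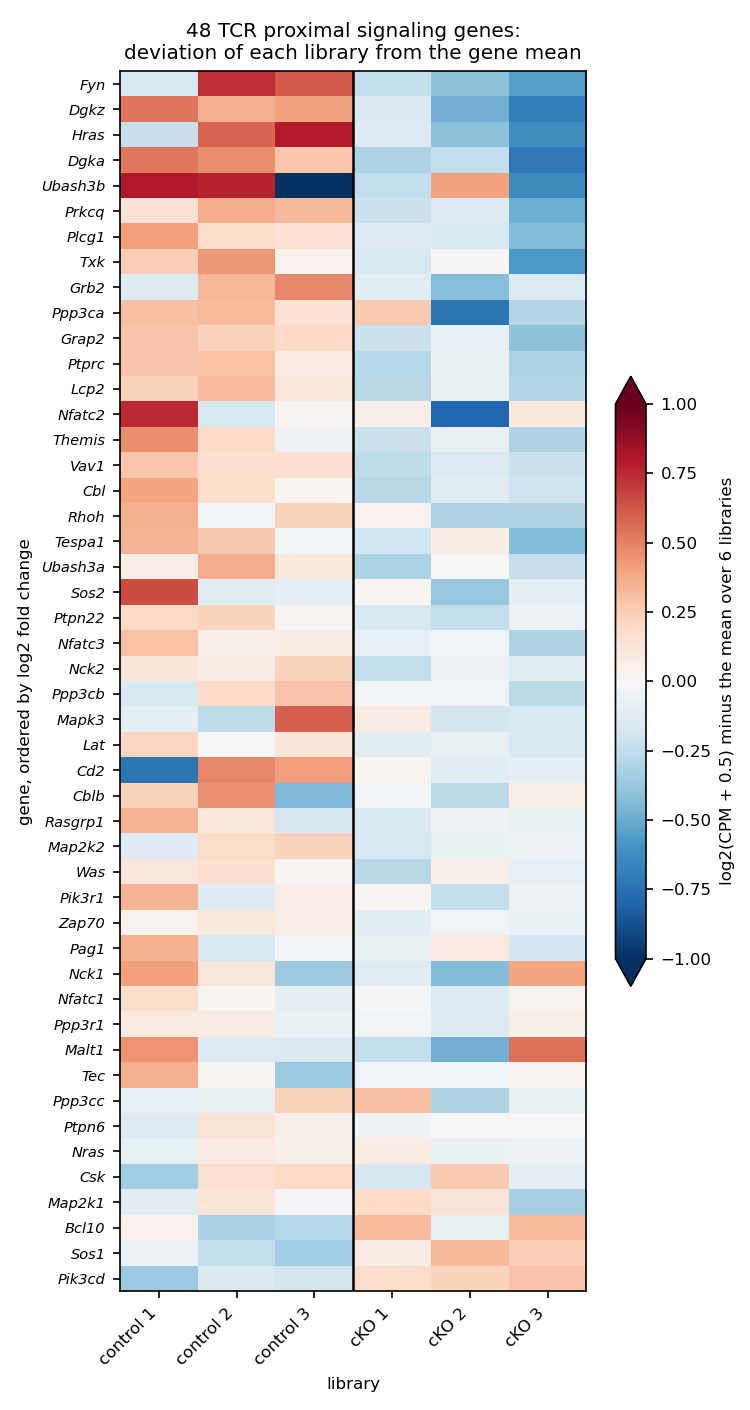
Log2(CPM + 0.5) of each gene minus its mean over the 6 libraries (red above, blue below), with genes ordered by log2 fold change and a line between the control and cKO libraries. Control library 1 departs from the other two control libraries for Fyn, Hras and Cd2, where it is low, and Ubash3b varies most, with 0.233 CPM in control library 3 and 2.23 CPM in control library 1.

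The calls of single members depended on which libraries were used. With 1 library left out in turn, Dgka and Dgkz were called in 5 of 6 fits, and lost the call without cKO library 3 (edgeR adjusted p = 0.0510 and 0.0545, log2 fold changes -0.71 and -0.75). Ptprc was called in 3 of 6 fits and Prkcq in 2 of 6. Vav1, Plcg1, Grap2, Lcp2, Fyn and Pik3cd were each called in 1 of 6, the fit without control library 1. The share of all tested genes called lower moved with the library left out as well. Leaving out cKO library 3 left 0 members called lower, beside 0.666% of all tested genes. Without control library 1, 13 members were called lower, beside 8.68% of all tested genes, and 2 higher, with Ubash3a, Grb2, Cd2, Hras and Bcl10 (the latter higher) added. The other libraries left out gave 2 (control 2), 3 (control 3), 2 (cKO 1) and 4 (cKO 2) members called lower, beside 1.98%, 2.98%, 2.45% and 3.5% of all tested genes. All 10 called members kept their direction in these 6 fits, and between 41 and 43 of the 48 log2 fold changes stayed below 0.

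**Figure D5:**
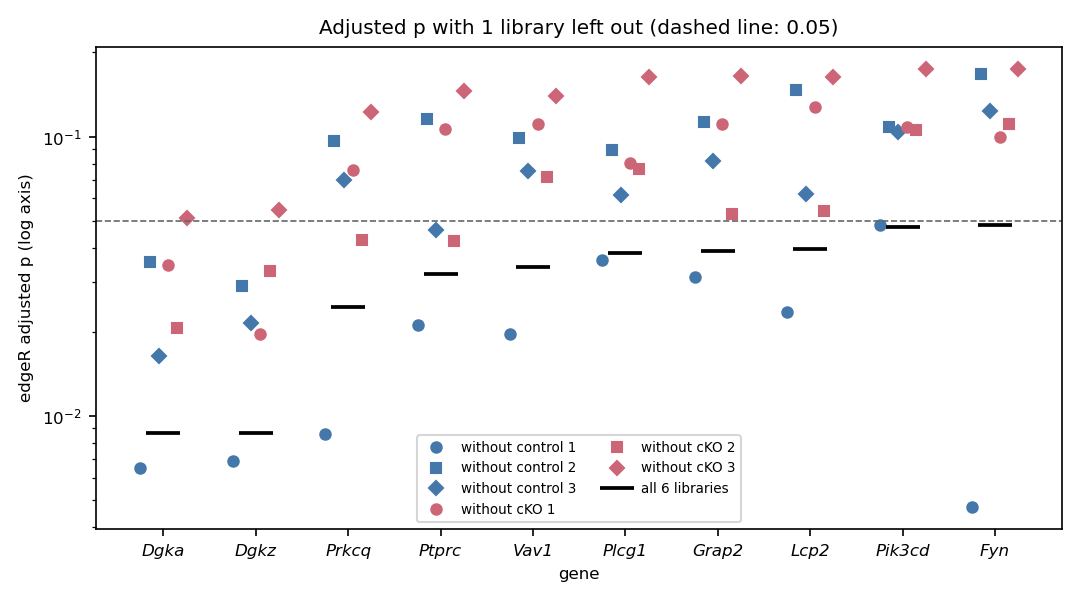
EdgeR adjusted p of the 10 called genes on a log axis, with all 6 libraries (black bars) and with each library left out (points), and a dashed line at 0.05. Points for the fit without cKO library 3 are above the line for all 10 genes, and Dgka and Dgkz have their other 5 points below it.

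Other genes of the pathway were read from an annotation column and from a hand-written list. The deposited table assigns 147 genes to the KEGG T cell receptor signaling pathway, of which 105 are neither members nor CD3 chains, coreceptors or Lck, and 80 of these were tested. These 80 tested genes had a median level of 16.4 CPM, beside 108 CPM for the members. They include many variable segments of the receptor with few counts. Some segments, such as Trav9n-2 and Trav9d-2, had the same counts in every library. By edgeR 5 of the 80 fell (6.25%) and 3 rose (3.75%), near the 5.89% and 4.47% of all tested genes. The median log2 fold change of the 80 was -0.17. Those that fell were Trac and Trbc2, the constant regions of the receptor chains, the variable segment Trav6d-3, which had no count in any cKO library, and Ikbkb and Ikbkg, subunits of the IkB kinase. Those that rose were Nfkbie, an inhibitor of NF-kB, Rela, a subunit of NF-kB, and Ctla4, an inhibitory receptor. The log2 fold change was -0.67 for Trac, -0.56 for Ikbkg and 1.46 for Nfkbie (edgeR adjusted p = 0.0103, 0.0384 and 0.00549). In a hand-written list of 34 further adaptors and regulators, 33 were tested, and 5 fell (15.2%) and 1 rose (3.03%), with a median of -0.072. Of these 34 genes 7 are also in the KEGG list. Rasal3, a GTPase activating protein that turns Ras off, had the largest decrease of the list (log2 fold change -1.20, standard error 0.14, edgeR adjusted p = 0.00365), from 798, 726 and 657 CPM in control libraries 1, 2 and 3 to 324, 367 and 258 CPM in cKO libraries 1, 2 and 3. Dok2, an adaptor that recruits Ras inhibitors, had -0.64, while Rac2, a small GTPase that acts on actin, and Arhgdib, an inhibitor of such GTPases, had -0.58 and -0.60 (edgeR adjusted p between 0.0104 and 0.0238). Skap1, an adaptor of integrin activation, fell by 0.42 on the log2 scale (edgeR adjusted p = 0.0450). Ptpn2, a phosphatase that restrains TCR and cytokine signals, rose by 0.69 (edgeR adjusted p = 0.0173).

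Genes that mark the DP stage had log2 fold changes below 0 like most members, in 12 of 12 cases. The 12 DP markers, which include Themis, summed to 14409 to 16543 CPM in the control and 10927 to 12838 CPM in the libraries labelled cKO. By edgeR 2 of the 12, Rag1 and Cd8b1, fell (log2 fold change -0.85 and -0.58). The 9 markers of the earlier DN and ISP stages summed to 167 to 196 CPM and 256 to 276 CPM, with 3 of the 7 tested called higher and Erg at 0 in all libraries. Mature SP markers summed to 1665 to 2055 CPM and 1439 to 1695 CPM, with 1 of 7 called higher and Zbtb7b at 0 in all libraries. NK and innate T cell markers summed to 34.4 to 74.0 CPM and 138 to 163 CPM, with 1 of 3 called higher and Klrb1c at 0. Most of that sum was Gzma, the gene called, with a mean of 102 CPM (log2 fold change 1.41, edgeR adjusted p = 0.00825). B cell markers summed to 948 to 1299 CPM and 870 to 911 CPM, with 1 of 3 called lower. The gene called was Cd79b, with a mean of 34.7 CPM, so most of that sum came from other genes of the list. Erythroid markers summed to 26.7 to 141 CPM and 0.685 to 48.4 CPM, and dendritic cell markers to 1.54 to 3.96 CPM and 4.25 to 6.30 CPM, with Clec9a at 0 in all libraries. Neutrophil markers stayed at or below 0.312 CPM in each library, and none was tested. The part of a shift in stage, or of other cells, in the levels of the members was not tested.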

How the data were processed

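RNA-Seq was performed by the authors on sorted DP thymocytes, 3 control and 3 Paxbp1 cKO libraries, grouped and numbered by the sample titles. The study's methods and the sample labels name different library kits. The authors deposited 1 table of 22322 genes with whole-number counts per gene, not normalized, and FPKM, scaled by the authors for length and depth. The submitters' processing notes name fastp 0.18.0, Bowtie2 2.2.8, HISAT2, StringTie 1.3.1 and RSEM, so counts may be rounded estimates. No source used here names the build. Group means, log2 ratio, p-value and FDR columns of the authors' comparison were not used.

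Counts were analysed with edgeR 4.0.16 in R 4.3.3. Genes were kept by filterByExpr (minimum count 10, minimum total 15), which left 11488 of 15349 genes with a count. Libraries were scaled by TMM (factors 0.981 to 1.01) and fitted by the quasi-likelihood test with genotype as the only term, adjusted by Benjamini-Hochberg over all tested genes. A gene was called at an adjusted p below 0.05. CPM are TMM-scaled. With 18963775 to 26252248 counts per library, 1 count was worth 0.0381 to 0.0527 CPM. Libraries of a group were compared over genes with at least 20 counts, and chi-square divided by its degrees of freedom was 19.8 to 68.3, far from sampling noise alone. Alternatives were DESeq2 1.42.0, RLE factors, total counts alone, no filter, a mean of at least 5 CPM, limma-voom (limma 3.58.1), a replicate block and leaving out each library. In counts simulated for cKO against control over 11379 genes, edgeR called 98 of 99 genes with a log2 change of 2, 56 of 97 with a change of 1 and 3 of 11183 unchanged genes. All genes were given the same dispersion there, and changes below 1 were not simulated. No called member passed 1, so these figures do not give the power for the members.

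Values per library are given for called members, the 4 members with the largest changes not called (mean of at least 5 CPM) and the 4 with the highest FPKM. Others with such values, Zap70, Nras, Sos1, Rasgrp1, Nfatc3 and Pik3r1, and, outside the members, Rasal3 and the DP genes, were chosen after their values were seen, as were Trbc2 and, where single libraries are named, Cd2 and Ubash3b. The members and lists were chosen with earlier results of these data known. Promoter windows are from RefSeq (GRCm38.p6) and positions from GENCODE M21, matched by Ensembl identifier for 48 members.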

Additional observations from a re-analysis of the deposited data

How the results depend on the processing

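The direction of the 10 called members was the same under all 13 alternatives. DESeq2 called 12 members lower and 1 higher, relative log expression factors, total counts alone and limma-voom each 8 and 1, and a filter at 5 CPM, on 47 members, 9 and 1. Of all genes these settings called 8.44%, 5.51%, 5.24%, 6.24% and 7.63% lower. With no filter on low counts 9 were lower and 0 higher, beside 4.92% of all genes lower. Leaving out 1 library at a time gave 0 to 13 lower and 0 to 2 higher. Fyn also lost its call with limma-voom (adjusted p = 0.0608) and Pik3cd with no filter (edgeR adjusted p = 0.0627). The same-numbered libraries did not deviate together over all tested genes (correlations 0.0622, 0.0793 and -0.0045). Such correlations cannot exclude a pairing with small effects or with effects on few genes. A fit with the replicate number as a block called 11 members lower and 0 higher, beside 5.81% of all genes lower. Of the 11, 8 were shared with the 9, and the fit lost Fyn and Pik3cd and added Txk, Themis and Rhoh. Of the other KEGG pathway genes DESeq2 called 5 higher and 8 lower, and leaving out 1 library gave 1 to 4 and 0 to 8. Of the hand-written list DESeq2 called 2 higher, and leaving out 1 library gave 0 to 2 higher and 1 to 7 lower. Of all genes DESeq2 called 943 higher and 969 lower, and leaving out 1 library gave 42 to 1000 higher and 78 to 1030 lower. Paxbp1 passed the threshold with DESeq2 (log2 fold change 0.92, adjusted p = 0.0213) and limma-voom (1.08, adjusted p = 0.0390), and ranged from 0.68 to 1.5 without 1 library.

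Reversals were among members that were not called. Csk turned to 0.0027 with DESeq2, 0.0037 with relative log expression factors, 0.015 with total counts alone, 0.0079 with the 5 CPM filter and 0.0010 with the replicate block. Map2k1 turned to -0.0024 with no filter, -0.0098 with limma-voom and -0.0082 with the replicate block, and Tec to 0.0027 with limma-voom. Leaving out 1 library, the log2 fold change ranged from -0.22 to 0.15 for Tec, -0.17 to 0.088 for Csk, -0.23 to 0.034 for Pag1, -0.11 to 0.023 for Ptpn6, -0.094 to 0.15 for Map2k1, -0.40 to 0.090 for Mapk3, -0.36 to 0.093 for Nck1, -0.45 to 0.16 for Malt1 and -0.23 to 0.091 for Ppp3cc. The cause of these changes was not tested. The median log2 fold change of all genes moved by less than 0.1 under every scaling. Ubash3b had 43, 42 and 6 counts in the control libraries and 18, 30 and 11 in the cKO libraries.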
